A study of Canis lupus familiaris with 48 samples.

Results

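The 8 genes described here lie in a stretch of dog chromosome 6 that holds a pair of adjacent genes with next to no reads in control medium and high levels in hyperosmotic NaCl or raffinose. The members are the genes annotated between positions 6887596 and 7321018 of the dog genome build CanFam3.1 with a mean of at least 1 CPM (the CPM unit scales a gene's read count to the total of its library) in any group. Of the 9 genes annotated in that window, 8 met the level with library totals scaled as given below, out of 32704 genes in the table. With unscaled library totals all 9 met it. The pair, ENSCAFG00000032573 and ENSCAFG00000013396, was selected on its measured change after NaCl and raffinose, and the window was drawn around it. The values of the pair against control and against urea are therefore given as a description with no test, while the 6 genes beside it were tested. The identifiers carry no symbols in the sources used here (0 of 32704 could be paired with one), so no gene is given a name or a role, and the defining markers of kidney epithelium could not be looked up.

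RNA was sequenced from MDCK I cells, an established kidney epithelial line of the dog, grown for 144 h in all. For the last 24 h the medium was brought to 500 mOsm with NaCl, with raffinose or with urea (200 mOsm of each), or was kept at 300 mOsm (control). Each of the 4 groups holds 12 libraries, 1 at each of 12 cell passages between 1 and 19, and the same passage numbers occur in every group. All groups are of 1 cell line, so replicates are passages of that line and not separate animals. The labels do not say whether libraries of 1 passage shared a culture, and the p-values measure the spread between these libraries.

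NaCl and raffinose cross the cell membrane poorly, so adding them outside draws water out of the cell and concentrates its interior. Urea crosses membranes readily and raises the osmolality with little lasting pull on water. Cells of the inner kidney meet both kinds of solute, and their best known answer to the first is the transcription factor NFAT5 (also called TonEBP), which raises genes that take up or make protective organic osmolytes. The study compared the solutes at equal osmolality in order to follow membrane transporters and pathways under such stress.

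Library totals ran from 3.92 to 16.16 M reads (M, mega), with a median of 10.51 M. The group medians were 11.92 M after NaCl, 10.12 M after raffinose, 10.3 M after urea and 10.24 M in control. The shallowest library was urea at passage 8. Where a library had no read of a gene, the limit by counting error alone is 3 reads. Levels below are CPM on totals scaled by TMM factors, changes are log2 fold changes ± SE, and adjusted p-values come from edgeR's quasi-likelihood test with Benjamini-Hochberg adjustment over 12654 tested genes, with a threshold of 0.05.

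In chromosome order, the window begins with ENSCAFG00000013197 (6887596 to 6899406, plus strand, 11 exons), followed by ENSCAFG00000013253 (6904648 to 6926288, minus strand, 11 exons) and ENSCAFG00000013367 (6957694 to 7009916, minus strand, 31 separate exonic blocks). A gap of 140824 bases without an annotated gene separates the last of these from the pair. ENSCAFG00000032573 (7150741 to 7154682, 3 exons) and ENSCAFG00000013396 (7167263 to 7179455, 4 exons) are both on the minus strand and lie 12580 bases apart. Their annotated exons are short, 1069 and 431 bases. To the right follow ENSCAFG00000013405 (7218730 to 7231106, plus strand, 4 exonic blocks), ENSCAFG00000013467 (7263574 to 7318040, plus strand, 16 exons) and ENSCAFG00000013483 (7315407 to 7321018, minus strand, 11 exons).

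The last 2 of these overlap on opposite strands and share 1650 exonic bases, which is 38.7% of the exons of ENSCAFG00000013467 and 66.9% of those of ENSCAFG00000013483. Counting took no account of strand, and featureCounts by default leaves out reads that fall on 2 genes. Their values therefore rest on the 2618 and 816 exonic bases that are not shared, and are less certain than those of the other 6.

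The remaining gene of the window, ENSCAFG00000013328 (6933366 to 6934360, minus strand), missed the level on scaled totals. It met the level on unscaled library totals, where the rule took in 9 genes. Its mean was 0.765 CPM after NaCl, 0.867 CPM after raffinose, 0.582 CPM after urea and 0.924 CPM in control, and it was not tested. The member with the lowest highest mean was ENSCAFG00000013483, at 16.7 CPM after NaCl, so no member lay near the threshold. Just outside the window on the left, ENSCAFG00000039760 averaged 0.903 CPM after NaCl, 1.1 CPM after raffinose, 2.42 CPM after urea and 1.98 CPM in control. Just outside on the right, ENSCAFG00000013496 averaged 5.86 CPM after NaCl, 5.45 CPM after raffinose, 5.49 CPM after urea and 15.7 CPM in control.

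ENSCAFG00000032573 was read in every NaCl and raffinose library and in few of the others. After NaCl it had from 142 CPM (passage 7) to 394 CPM (passage 19), with a median of 192 CPM. After raffinose it had from 110 CPM (passage 4) to 247 CPM (passage 14), with a median of 189 CPM. After urea 6 of 12 libraries had a read, 43 reads in all, and in control 3 of 12 libraries had one, 13 reads in all. The lowest NaCl or raffinose library held 951 reads, so the 24 libraries of these solutes stood wholly apart from the other 24, which held at most 34. Means were 229 ± 88.5 CPM after NaCl, 180 ± 47.7 CPM after raffinose, 0.334 ± 0.901 CPM after urea and 0.0763 ± 0.199 CPM in control (SD, n = 12 each). In RNA from whole cultures, more cells with the transcript and more transcript per cell cannot be told apart.

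**Figure D1:**
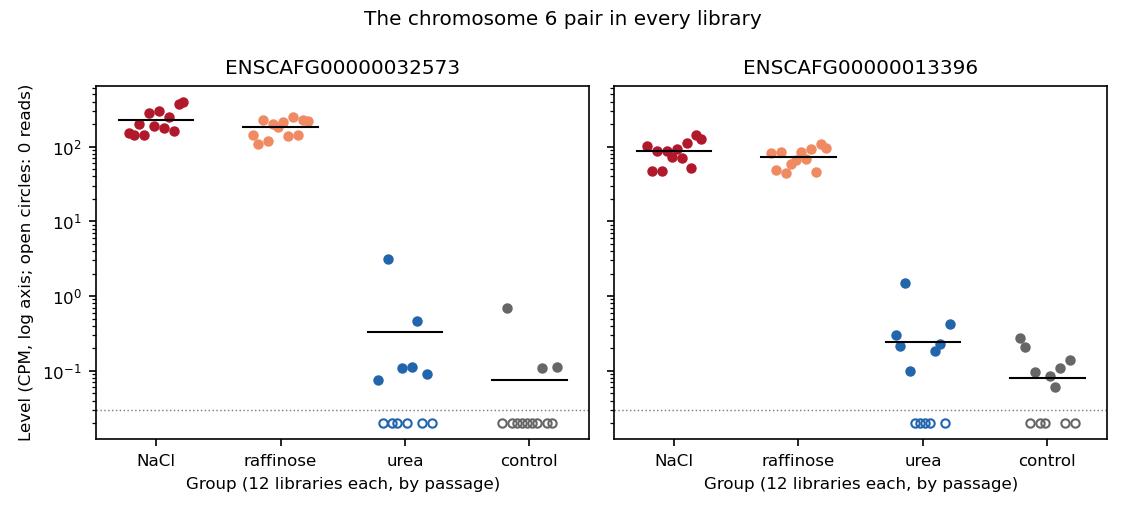
Level of the 2 genes of the pair in each of 48 libraries, in CPM on a log axis, by group; points are libraries ordered by passage, open circles are libraries with 0 reads, and black lines are group means. All 24 NaCl and raffinose libraries lie above 40 CPM for both genes, and the highest urea library, passage 5, lies at 3.16 and 1.49 CPM.

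ENSCAFG00000013396 showed the same split at lower counts. It had from 47.1 CPM (passage 4) to 141 CPM (passage 17) after NaCl, with a median of 86.5 CPM, and from 44 CPM (passage 7) to 108 CPM (passage 17) after raffinose, with a median of 75.2 CPM. After urea 7 of 12 libraries had reads, with 33 in all and at most 1.49 CPM. In control 7 of 12 libraries had reads as well, with 12 in all and at most 0.276 CPM. The groups of NaCl and raffinose did not overlap with those of urea and control. For neither gene of the pair was the share of all genes with groups that stand apart counted. Means were 86.4 ± 30.7 CPM after NaCl, 73.0 ± 20.8 CPM after raffinose, 0.244 ± 0.416 CPM after urea and 0.0811 ± 0.0915 CPM in control (SD, n = 12 each).

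The log2 fold changes that chose the pair were 11.11 ± 0.41 and 9.80 ± 0.34 for NaCl against control, and 10.76 ± 0.41 and 9.56 ± 0.34 for raffinose against control, in the order ENSCAFG00000032573 and ENSCAFG00000013396. Their size rests on the few reads of the controls. For ENSCAFG00000032573, 10 of the 13 control reads were in the library of passage 4. Without passage 4 its log2 fold changes were 12.71 for NaCl and 12.37 for raffinose. The 3 solutes were set against the same 12 control libraries.

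The urea values of the pair depended on single libraries. The urea library of passage 5 held 34 of the 43 urea reads of ENSCAFG00000032573 and 16 of the 33 urea reads of ENSCAFG00000013396, and without it the urea means were 0.0771 and 0.131 CPM. The log2 fold changes of urea against control were 1.75 ± 0.93 and 1.47 ± 0.79. For ENSCAFG00000032573 the value was -0.33 without passage 5 and 3.41 without passage 4, so its direction is not settled. For ENSCAFG00000013396 it was 0.59 without passage 5. Against the NaCl libraries of the same passage, urea at passage 5 had 1.60% and 1.72% of the NaCl level for the 2 genes, and control at passage 4 had 0.486% and 0.443%.

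Per length of exon the 2 genes of the pair stood at nearly the same level. After NaCl the means were 214 CPM per kb of exon for ENSCAFG00000032573 and 201 CPM per kb for ENSCAFG00000013396, and after raffinose 169 CPM per kb for each. Within a library the ratio of the first to the second, per kb, had a median of 1.13 after NaCl (0.609 to 1.31) and of 1.05 after raffinose (0.706 to 1.35). On the same scale the genes beside them were lower after NaCl, with 89.1 CPM per kb for ENSCAFG00000013405, 51.1 for ENSCAFG00000013367 and 45.2 for ENSCAFG00000013467. The other 3 had between 18.6 and 20.4 CPM per kb after NaCl. For ENSCAFG00000013467 and ENSCAFG00000013483 the length used was the 2618 and 816 exonic bases that are not shared. Over all their exons their values per kb would be lower. In control this order was different: ENSCAFG00000013405 led with 34 CPM per kb, and the pair, at 0.0713 and 0.188 CPM per kb, came last.

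Between NaCl and raffinose, a contrast that did not choose the pair, neither gene passed the test. ENSCAFG00000032573 was higher after NaCl in 10 of 12 passages, with a log2 difference of 0.35 ± 0.20 (95% interval from -0.05 to 0.75, edgeR adjusted p = 0.259). ENSCAFG00000013396 was higher after NaCl in 11 of 12 passages, with a difference of 0.24 ± 0.17 (from -0.09 to 0.57, edgeR adjusted p = 0.353). These intervals take no account of the shared passages. They leave room for no difference and for a difference of more than 1.5-fold in the first gene. Within passages, the log2 difference ran from -0.19 to 0.83 for ENSCAFG00000032573 and from -0.04 to 0.55 for ENSCAFG00000013396. With passage as a replicate block the differences were 0.32 and 0.22, with edgeR adjusted p of 0.0802 and 0.0845.

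The level of the pair differed between passages, and NaCl and raffinose libraries of the same passage were high or low together. Across the 12 passages, the log2 level of ENSCAFG00000013396 after NaCl and after raffinose had a Pearson r of 0.95 (permutation p = 3e-05, adjusted p = 0.00024) and a Spearman rho of 0.90 (adjusted p = 0.00136). For ENSCAFG00000032573 r was 0.82 (permutation p = 0.00174, adjusted p = 0.00696) and rho was 0.79 (adjusted p = 0.0129). Without the 2 NaCl libraries farthest from the median, r was 0.92 and 0.84 for these genes. The p-values were adjusted over 8 relations, 1 per member. The share of all genes with such a relation was not counted. Over all tested genes, libraries of the same passage in different groups also varied together (r of 0.31 on average). That r is taken over genes between 2 libraries, so it is not a background for the r of 1 gene over passages. Whether the relation is particular to the pair was not tested. ENSCAFG00000013467 (r = 0.73, permutation adjusted p = 0.0132) and ENSCAFG00000013197 (r = 0.69, permutation adjusted p = 0.0268) passed too, but had r of 0.35 and 0.29 without the 2 farthest libraries and adjusted p over 0.05 by rank, so these relations rest on 2 libraries. The other 4 members did not pass, with r from -0.44 to 0.38.

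**Figure D2:**
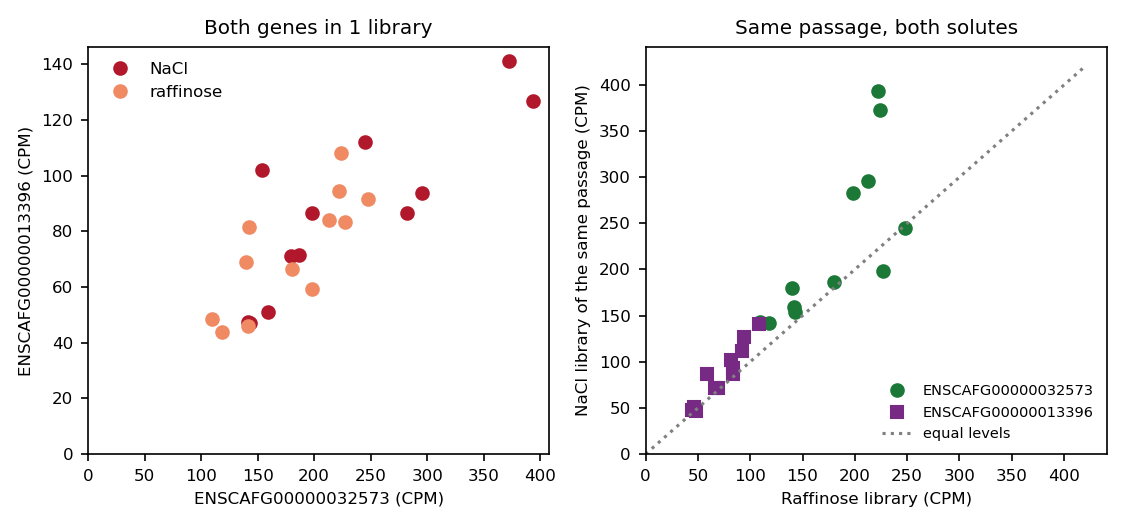
Left, CPM of the 2 genes of the pair in each NaCl and raffinose library; right, CPM of each gene in the NaCl library against the raffinose library of the same passage, with a dotted line of equal levels. In both panels the points rise together, with Pearson r of log2 levels of 0.82 and 0.80 on the left, and of 0.82 and 0.95 on the right.

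Within a group the 2 genes of the pair also varied together. After NaCl the Pearson r of their log2 levels over 12 libraries was 0.82 (permutation p = 0.00177, adjusted p = 0.0432) and rho was 0.80 (adjusted p = 0.0804). After raffinose r was 0.80 (permutation p = 0.00275, adjusted p = 0.0432) and rho was 0.81 (adjusted p = 0.0804). Without the 2 libraries farthest from the median, r was 0.69 after NaCl and 0.65 after raffinose. These p-values were adjusted over the 56 relations between members in the 2 groups, of which 5 passed for r and 0 for rho. How often other genes of the table vary together in this way was not counted. The pair was the only one of the 28 combinations of members to pass for r in both groups. These groups share their passages, over which each gene of the pair varied together between them, so the 2 results are not independent. After NaCl, ENSCAFG00000032573 and ENSCAFG00000013467 passed with r = 0.75 but had 0.31 without the 2 farthest libraries, and ENSCAFG00000013253 and ENSCAFG00000013483 passed with r = -0.80 (-0.71 without these). After raffinose, ENSCAFG00000013405 and ENSCAFG00000013467 passed with r = 0.75 (0.53 without these).

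The difference between passages was not a passed linear trend with passage number. With the counts of the 4 libraries of each passage added up, edgeR called 0 of the 8 members, with 0 at an unadjusted p under 0.05, beside 0.0615% of all 14626 genes tested. The slope of ENSCAFG00000032573 was 0.36 ± 0.21 log2 units per 10 passages (edgeR adjusted p = 0.507), and that of ENSCAFG00000013396 was 0.20 ± 0.20 (edgeR adjusted p = 0.733). The reads of the pair come almost all from NaCl and raffinose libraries, so its sums also vary with the depth of these libraries. With the 48 libraries taken singly, where 16.2% of all genes were called, 1 member passed, ENSCAFG00000013467, with a slope of 0.14 ± 0.05 (edgeR adjusted p = 0.0422). In that fit 3 members had an unadjusted p under 0.05. It counts the 4 libraries of a passage as separate replicates of the passage number, so its p-values can be too small. The slope of ENSCAFG00000032573 was 0.37 ± 0.18 there (edgeR unadjusted p = 0.0409, adjusted p = 0.145).

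Beside the pair, 3 genes rose clearly after NaCl and after raffinose, 1 rose slightly, and 2 did not pass. Of the 6 genes, 4 were higher and 0 lower in each of these comparisons. Over all tested genes, 70.7% were called for NaCl (34.6% higher, 36.1% lower) and 74.9% for raffinose (36.7% higher, 38.2% lower). A call in either direction for 66.7% of 6 genes is therefore near the background. All 4 calls were higher, a direction that took 34.6% and 36.7% of all genes. With 6 genes this difference is a description. The median log2 fold change of the 6 genes was 0.55 after NaCl and 0.65 after raffinose, beside -0.02 over all tested genes in both comparisons. Scaling by library totals only gave medians over all genes of -0.19 and -0.25, and 3 of the 6 genes were then higher and 1 lower in each comparison. After urea 1 of the 6 genes was higher and 1 lower, beside 52.3% of all genes called (27.4% higher, 24.9% lower), and the median was 0.02 for the 6 genes and for all genes.

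**Figure D3:**
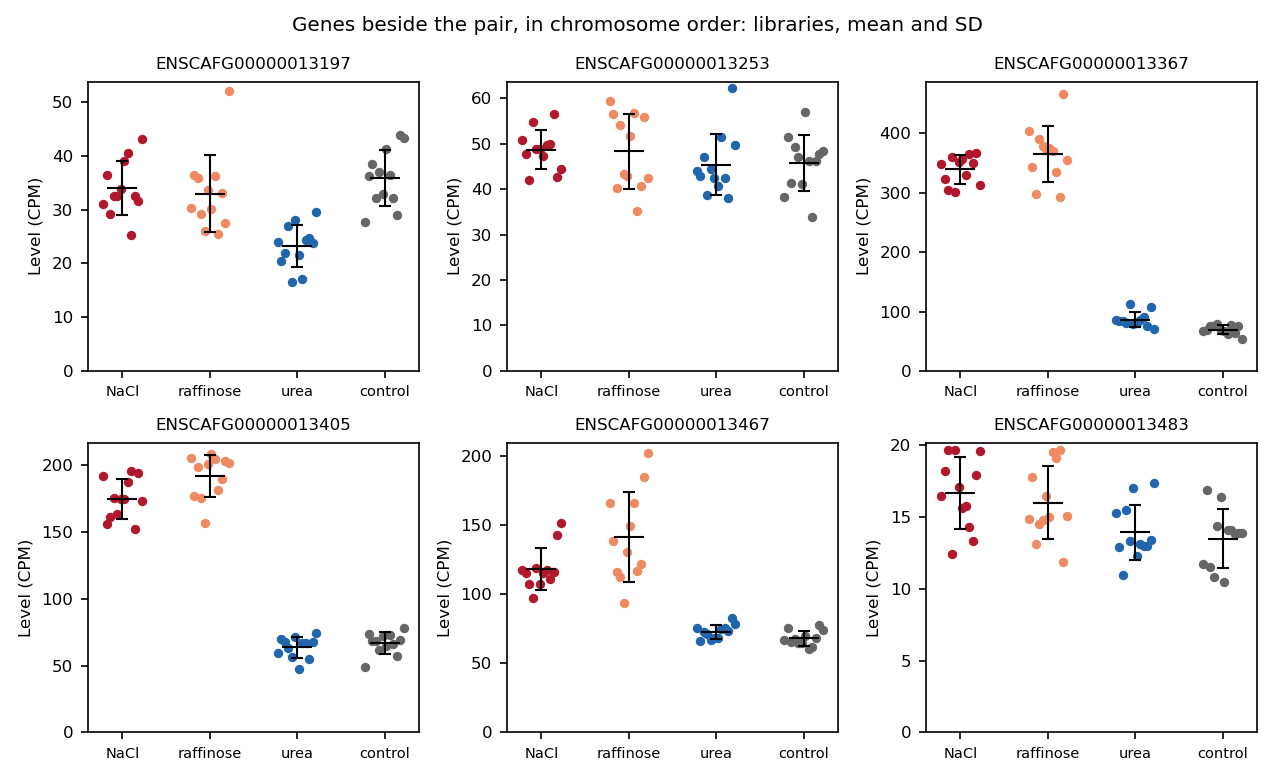
Level in CPM of the 6 genes beside the pair in each library, in chromosome order by panel, with NaCl, raffinose, urea and control from left to right; bars are the group mean and SD. ENSCAFG00000013367, ENSCAFG00000013405 and ENSCAFG00000013467 have NaCl and raffinose libraries wholly above control, and ENSCAFG00000013197 is lowest after urea. The share of all genes with groups that stand apart in this way was not counted.

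ENSCAFG00000013367, the nearest expressed gene to the left of the pair, was well expressed in control and rose several-fold. It had from 301 to 367 CPM after NaCl (median 349), from 293 to 466 CPM after raffinose (median 372), from 70.8 to 112 CPM after urea (median 84.0) and from 54.3 to 79.8 CPM in control (median 68.4). The NaCl and raffinose libraries did not overlap with those of control or urea, while urea and control overlapped. How often groups stand apart over all genes was not counted, here or for the genes below. The log2 fold change was 2.29 ± 0.07 after NaCl (4.88-fold, edgeR adjusted p = 8.12e-33) and 2.39 ± 0.07 after raffinose (5.26-fold, edgeR adjusted p = 7.92e-34), in 12 of 12 passages each. Urea raised it too, by 0.31 ± 0.07 (edgeR adjusted p = 0.00015), in 12 of 12 passages, and this rise was not called when a minimum fold of 1.5 was required. NaCl and raffinose exceeded urea by 1.98 ± 0.07 and 2.09 ± 0.07 (edgeR adjusted p = 1.7e-30 and 1.51e-31).

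ENSCAFG00000013405, the nearest gene to the right, rose after both poorly permeant solutes and did not pass after urea. It had from 152 to 196 CPM after NaCl (median 175), from 157 to 209 CPM after raffinose (median 200), from 47.5 to 74.7 CPM after urea (median 66.8) and from 49 to 78.3 CPM in control (median 68.8). All 24 NaCl and raffinose libraries lay above all 24 of the other groups. The log2 fold change was 1.39 ± 0.07 after NaCl (2.61-fold, edgeR adjusted p = 6.42e-25) and 1.52 ± 0.07 after raffinose (2.87-fold, edgeR adjusted p = 9e-27), against -0.07 ± 0.07 after urea (edgeR adjusted p = 0.399). Against urea, NaCl was higher by 1.45 ± 0.07 and raffinose by 1.59 ± 0.07 (edgeR adjusted p = 8.82e-26 and 1.57e-27).

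ENSCAFG00000013467 rose by less, and was the only 1 of the 8 members called between NaCl and raffinose. It had from 97.4 to 152 CPM after NaCl (median 116), from 93.8 to 202 CPM after raffinose (median 135), from 66.2 to 83.2 CPM after urea (median 73.1) and from 60.1 to 78.1 CPM in control (median 67.2). The NaCl and raffinose groups overlapped with each other but not with urea or control. The log2 fold change was 0.79 ± 0.08 after NaCl and 1.05 ± 0.08 after raffinose (edgeR adjusted p = 2.41e-12 and 1.19e-16), and 0.10 ± 0.08 after urea (edgeR adjusted p = 0.33). NaCl lay below raffinose in 11 of 12 passages, by -0.26 ± 0.08 (edgeR adjusted p = 0.0208), a comparison in which 15.4% of all genes were called (7.42% higher, 7.97% lower). That call was lost without passage 1 (edgeR adjusted p = 0.0527), 11 (0.0516) or 13 (0.0577), and with library totals only (0.074); it passed with passage as a replicate block (-0.25, edgeR adjusted p = 0.00159).

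ENSCAFG00000013483, whose exons largely overlap the 3′ part of ENSCAFG00000013467 on the other strand, differed from control by little. It averaged 16.7 ± 2.48 CPM after NaCl, 16.0 ± 2.53 CPM after raffinose, 13.9 ± 1.93 CPM after urea and 13.5 ± 2.03 CPM in control (SD, n = 12 each), and all groups overlapped. The log2 fold change was 0.31 ± 0.09 after NaCl (edgeR adjusted p = 0.0021) and 0.25 ± 0.09 after raffinose (edgeR adjusted p = 0.013), each higher in 11 of 12 passages. After urea it was 0.05 ± 0.09 (edgeR adjusted p = 0.68). With library totals only, the NaCl and raffinose calls were lost, at 0.14 and 0.01 (edgeR adjusted p = 0.185 and 0.905). They were also lost when a minimum fold of 1.5 was required, and the raffinose call with no filter on low counts (0.21, edgeR adjusted p = 0.061).

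The 2 genes farthest to the left did not rise with the poorly permeant solutes. ENSCAFG00000013253 had 48.7 ± 4.31 CPM after NaCl, 48.3 ± 8.25 CPM after raffinose, 45.4 ± 6.69 CPM after urea and 45.7 ± 6.14 CPM in control (SD, n = 12 each), and it passed in 0 of the 6 comparisons by edgeR (0 at an unadjusted p under 0.05, and 0 by DESeq2), with log2 values between -0.01 and 0.10. The 95% intervals of its changes against control reached at most 0.25 for NaCl and 0.24 for raffinose. With library totals only, its value was -0.08 after NaCl and -0.15 after raffinose, so its direction depends on the scaling.

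ENSCAFG00000013197 was the only member that fell against control, and it did so after urea. It had from 25.3 to 43.1 CPM after NaCl (median 32.5), from 25.4 to 52.1 CPM after raffinose (median 31.8), from 16.5 to 29.5 CPM after urea (median 24.0) and from 27.8 to 43.9 CPM in control (median 36.3). Urea lay below control in 12 of 12 passages, by -0.62 ± 0.10 (edgeR adjusted p = 3.89e-07), although the ranges overlapped. NaCl and raffinose exceeded urea by 0.54 ± 0.10 and 0.50 ± 0.10 (edgeR adjusted p = 2.61e-06 and 9.89e-06), in 12 of 12 passages each. Against control the values were -0.08 ± 0.10 after NaCl and -0.12 ± 0.10 after raffinose (edgeR adjusted p = 0.459 and 0.255). With library totals only these were -0.25 and -0.35 and passed (edgeR adjusted p = 0.022 and 0.00156), so that the restriction to urea depends on the scaling. The fall after urea and the differences from urea were not called when a minimum fold of 1.5 was required.

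Set directly against urea, NaCl and raffinose were each higher in 5 of the 6 genes beside the pair and lower in 0. Over all genes, 72.6% were called for NaCl against urea (35.7% higher, 36.9% lower) and 76% for raffinose against urea (37.6% higher, 38.4% lower). The 5 genes were those named above other than ENSCAFG00000013253. For ENSCAFG00000013483 the differences were small, at 0.26 ± 0.09 for NaCl and 0.20 ± 0.09 for raffinose (edgeR adjusted p = 0.00878 and 0.0453). Both calls were lost with library totals only, at 0.17 for NaCl and 0.04 for raffinose (edgeR adjusted p = 0.111 and 0.705), which left 4 of the 6 genes higher in each comparison. The raffinose call was also lost with no filter on low counts (0.16, edgeR adjusted p = 0.162) and without any 1 of passages 4, 5, 8, 11, 13, 14 or 16.

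By distance from the middle of the pair, the changes were not even on the 2 sides. On the right they became smaller with distance, from ENSCAFG00000013405 (59.8 kb) to ENSCAFG00000013467 (125.7 kb) and ENSCAFG00000013483 (153.1 kb). On the left the gene at -181.3 kb, ENSCAFG00000013367, rose more than any gene on the right, while ENSCAFG00000013253 (-249.6 kb) and ENSCAFG00000013197 (-271.6 kb) did not pass against control after NaCl or raffinose. The distances are between gene midpoints, and negative to the left, and with 6 genes this order is a description.

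**Figure D4:**
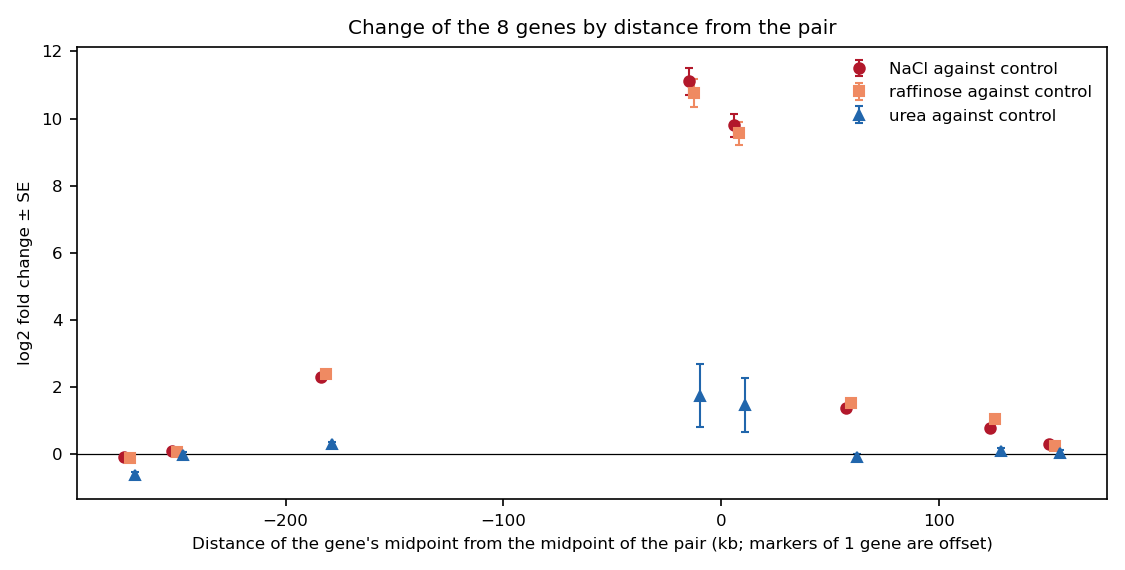
Log2 fold change ± SE of the 8 members against control for NaCl, raffinose and urea, by distance in kb of each gene's midpoint from the midpoint of the pair. The 2 genes of the pair stand near 10 after NaCl and raffinose, ENSCAFG00000013367 at 2.29 and 2.39, ENSCAFG00000013405 at 1.39 and 1.52, and all 6 genes beside the pair lie between -0.62 and 0.31 after urea.

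Across all 48 libraries, the genes outside the window most like the pair were ENSCAFG00000006942 (chromosome 15, 40179872 to 40239634) and ENSCAFG00000006538 (chromosome 25, 8972958 to 9000762). Likeness was the Pearson correlation of log2(CPM + 0.5) with the mean of the pair, and was 0.994 and 0.990. ENSCAFG00000006942 had the same near-silent state, with 209 ± 42.4 CPM after NaCl, 225 ± 49.7 CPM after raffinose, 0.208 ± 0.509 CPM after urea and 0.267 ± 0.413 CPM in control. ENSCAFG00000006538 was expressed throughout, with 3590 ± 384 CPM after NaCl, 3736 ± 353 CPM after raffinose, 124 ± 18.5 CPM after urea and 127 ± 19.1 CPM in control (SD, n = 12 each). Of 12646 other tested genes, 235 had a correlation over 0.95, and the same measure was 0.979 for ENSCAFG00000013367, 0.975 for ENSCAFG00000013405, 0.902 for ENSCAFG00000013467 and between 0.211 and 0.505 for the other 3. Such values largely reflect that 24 libraries of NaCl and raffinose stand apart from 24 of urea and control.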

How the data were processed

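The authors deposited 1 table of gene counts, not normalized, that covers the 48 libraries. The library kit was TruSeq RNA version 2, which selects polyadenylated RNA, per the labels' protocols. CASAVA, HISAT2 2.0.5 and featureCounts 1.5.1 were used, per the submitters' processing notes. Counting was over exons, by gene and without strand, on Ensembl release 87 of CanFam3.1, per the file headers. Columns were matched to libraries by group and passage; the 4 columns of passage 10 have an extra number, unexplained in the labels. The table had 0 blank or summary rows and 0 unused value columns. Exonic length, in bases, also came from the deposited table, and exons that overlap were merged.

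After filterByExpr (12654 genes left) and TMM scaling, glmQLFit of edgeR 4.0.16 (R 4.3.3) was run over 48 libraries with a term for the group; SE is the log2 fold change over the square root of F, and 95% intervals are 1.96 SE. Trends with passage used counts summed per passage. Correlations used log2(CPM + 0.5) and two-sided permutation tests with 100000 resamples. Every member is named, with the 2 most alike genes outside the window. The edgeR fit of the group (read for NaCl against control) and that of the summed passages were tried on simulated counts. The correlations and the alternative fits were not. No libraries within a group were as alike as repeat counts would be (lowest chi-square per gene 5.26), so each counted as 1 replicate. Passage numbers pair the libraries, since the labels give 1 passage to 4 libraries: deviations from group means correlated by 0.31 on average in 72 same-passage pairs (-0.09 to 0.7) and by -0.03 in 792 others. DESeq2 1.42.0, other scalings, filters and fits were alternatives. The members, window and lists were chosen with earlier results of these data known; lists of markers and tonicity genes by symbol could not be matched and were not used. No sequences were used here.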

Additional observations from a re-analysis of the deposited data

How the results depend on the processing

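Counts of called genes beside the pair were recomputed under 8 other fits, with each passage left out in turn, and in 2 fits chosen after seeing the data: without the shallowest library, and without the control library of passage 4 and the urea library of passage 5. For NaCl and raffinose against control the count stayed at 4 without any 1 passage, for urea against control at 2 and for NaCl against urea at 5. It was 4 to 5 for raffinose against urea. With passage as a replicate block the counts were 4, 4, 2, 1, 5 and 5 in the order NaCl, raffinose and urea against control, NaCl against raffinose, NaCl against urea and raffinose against urea, and this block changed no call of the 6 genes. Of all 12654 genes tested, the block called 9677, 10071, 7719, 3593, 9840 and 10176 in the same order. Against a minimum fold of 1.5 the counts were 3, 3, 0, 0, 2 and 3 in the same order, since that test asks for a larger change. Of all genes tested it called 3108, 3969, 1165, 14, 3497 and 4152. The single call between NaCl and raffinose went to 0 with library totals only, with no filter on low counts and with only the 2 groups compared, and ranged from 0 to 1 without 1 passage. The trend with passage had 1 call, not 0, with 48 libraries counted as separate replicates of passage number. Direction reversed for ENSCAFG00000013253 with library totals only (NaCl against control -0.08, raffinose against control -0.15, raffinose against urea -0.07). It also reversed without 1 passage (urea against control -0.06 to 0.04, NaCl against raffinose -0.03 to 0.04), and without the 2 libraries named above (urea against control 0.0017). ENSCAFG00000013483 reversed for urea against control with library totals only (-0.03). None of these reversed values passed the test, and the cause was not tested. With CPM on library totals the rule took in 9 genes, and with group medians 8. Control and urea levels of the pair rest on 12 to 43 reads per gene and group of 12 libraries.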

Other observations

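The 2 libraries that held most of the urea and control reads of ENSCAFG00000032573 also held reads of the near-silent gene most like the pair. In urea at passage 5, ENSCAFG00000006942 had 19 reads (1.77 CPM), which was 1.32% of the NaCl library of that passage, beside 1.60% and 1.72% for the pair, and a median of 0 CPM in the other 11 urea libraries. In control at passage 4 it had 21 reads (1.46 CPM), 0.765% of the NaCl library of that passage, beside 0.486% and 0.443% for the pair, and a median of 0.0953 CPM in the other 11 controls. ENSCAFG00000006538, expressed in every group, had 148 CPM in urea at passage 5 against a median of 120 CPM in the other urea libraries (highest 160 CPM), and 157 CPM in control at passage 4 against a median of 124 CPM in the other controls (highest 155 CPM). These libraries were singled out after their values were seen, and what set them apart was not tested. ENSCAFG00000006942 and ENSCAFG00000006538 were chosen by their correlation with the pair over all 48 libraries, these 2 included. Their values here are thus partly set by that choice and are a description.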
